A study of Arabidopsis thaliana with 6 samples.

Results

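The EF-hand calcium sensor genes described here are 9 Arabidopsis thaliana genes, each measured by 1 of the 22746 probe sets tested. They were chosen from the platform annotation: every probe set with 1 listed gene whose symbol is CML and a number, which gave 7 genes (CML23, CML30, CML37, CML38, CML41, CML42 and CML43), and the EF-hand protein genes AT3G01830 and AT4G27280, which were added by name with earlier results of these arrays known. The symbol rule cannot find a family member that the annotation lists only by locus or not at all, and 8730 probe sets had no listed gene. The counts below thus describe these 9 genes and may leave out others of the family. The study measured transcripts in rosette leaves of ecotype Columbia 10 min after mechanical wounding, in plants 5 weeks old grown on soil in 10 h light and 14 h dark at 21 °C. No transgene or mutation is named in the labels. Control leaves came from unwounded plants. In wounded plants, 3 rosette leaves were squeezed with tweezers over the midvein: these were the local leaves, and unwounded leaves of such plants were the systemic leaves. Each group had 2 biological replicates, each a pool of leaves from 3 plants on 1 Affymetrix array, so p-values rest on 6 arrays and cannot tell plants within a pool apart. In whole leaves, fewer cells of a type and less RNA per cell cannot be told apart.

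An EF-hand is a helix-loop-helix fold that holds a calcium ion, and most EF-hand proteins change shape when calcium binds. Calmodulin-like proteins (CMLs) are a plant family of such sensors that carry EF-hands and little else, so they act through the proteins they bind. In leaves, wounding is known to raise cytosolic calcium at the wound and, through the veins, in leaves connected to it, and glutamate receptor-like channels take part in that spread. Several CML genes have known parts in defence: CML37 promotes and CML42 restrains jasmonate-dependent defence against herbivores, and CML41 acts at plasmodesmata in immunity.

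The leaf identity of the samples was borne out by the mesophyll genes RCA (rubisco activase) and LHCB4.1 (a light-harvesting protein), at 14.20 to 14.61 log2 RMA units on all 6 arrays. Of 25 marker genes of leaf cell types, 7 had a named probe set. The phloem gene SWEET11, a sucrose transporter, was higher in local leaves by 0.79 ± 0.16 on the log2 scale (SE, adjusted p = 0.011 by limma), at 11.40 and 11.50 against 10.41 and 10.90. The dividing-cell kinase genes AUR1 and AUR2 fell in local leaves by 0.89 and 1.01 and in systemic leaves by 0.67 and 0.79. FMA (guard cells) and TRY (trichomes) did not pass in any of the 3 comparisons, except FMA in local leaves without control replicate 1 (-0.53, adjusted p = 0.048). The SWEET11 call failed without local replicate 2 (adjusted p = 0.059). A measure of RNA quality, the log2 level of the ubiquitin control at its 3' end less that at its 5' end, was 0.97 and 1.05 on the local arrays and 1.23 to 1.33 on the remaining ones. The same measure for actin (3.76 and 3.62 local, 3.97 and 3.51 control) and GAPDH (1.28 and 1.03 local, 1.09 and 0.97 control) overlapped between local and control arrays. The part of these shifts in the results below was not tested.

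In wounded leaves 6 of the 9 EF-hand genes rose within 10 min and none fell: CML38, AT3G01830, AT4G27280, CML37, CML23 and CML42. Their rises ran from 1.91-fold (CML42) to 48.1-fold (CML38). The median log2 difference of the 9 genes was 2.60, against -0.04 over all probe sets. At an adjusted p under 0.05, 9.92% of all probe sets rose and 13.7% fell, 23.6% together. Among the 7 genes that the platform annotation names CML, which were not added by name, 4 rose and their median difference was 0.94. In all 9 genes the control and local arrays did not overlap, which held for 59.3% of all probe sets. The local arrays lay above in 7 genes and below in 2. The gap between the groups was only 0.06 for CML30 and 0.02 for CML43.

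In unwounded leaves of wounded plants 4 of the 9 genes rose and none fell: AT4G27280, CML23, CML38 and CML42, by 1.81-fold to 7.39-fold. Over all probe sets 4.73% rose and 3.67% fell, 8.4% together. The median of the 9 genes was 0.86, against -0.02 over all probe sets, and 3 of the 7 CML genes rose, with a median of 0.29 for the 7. Control and systemic arrays did not overlap in 7 of the 9 genes, against 50.7% of all probe sets. The systemic arrays lay above in 5 of these and below in 2, and the gap of CML43 was only 0.02. Both comparisons use the same control arrays. Between the leaves of wounded plants, 5 of the 9 genes were higher in local than in systemic leaves (CML38, AT3G01830, CML37, AT4G27280 and CML23), and none was lower. The median of the 9 was 0.96, but 3 of the 7 CML genes were higher and their median was 0.08, against -0.03 over all probe sets. Over all probe sets 4.77% were higher and 4.93% lower, 9.7% together. Without local replicate 1 the count was 3 (CML38, AT3G01830 and CML37). Local and systemic arrays did not overlap in 5 of the 9 genes, against 53.4% of all probe sets.

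**Figure D1:**
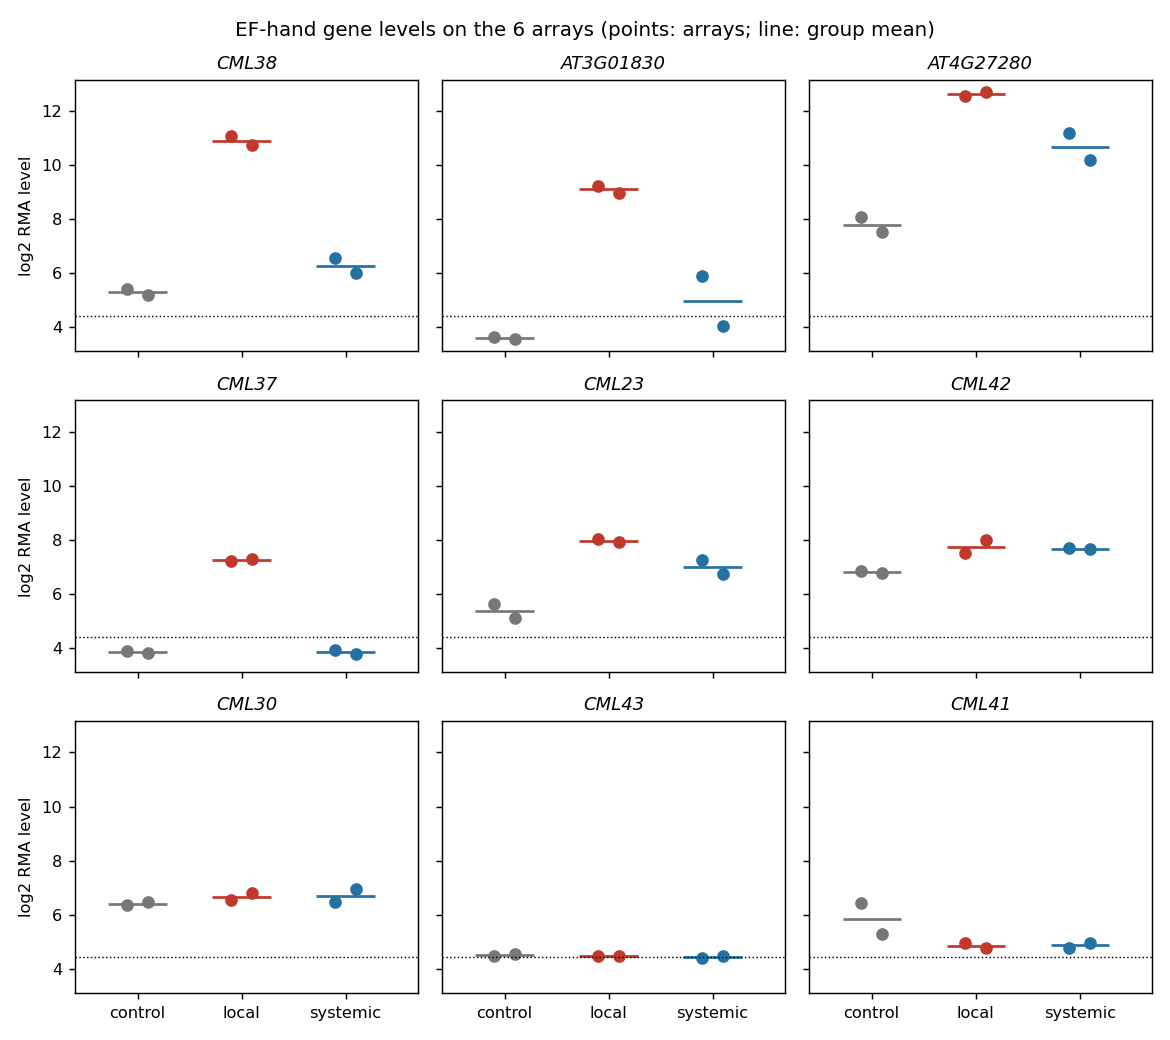
Log2 RMA level (y axis, the same in all panels) of each EF-hand gene in control, local and systemic leaves. Points are single arrays (2 per group), horizontal lines group means, and the dotted line is the mean lower quartile of the 6 arrays; CML38 stands at 11.07 and 10.74 in local leaves, whereas CML43 lies near the dotted line in all groups.

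CML38, a calmodulin-like protein known from hypoxia, stood at 5.42 and 5.20 on the control arrays, 11.07 and 10.74 on the local arrays and 6.56 and 6.00 on the systemic arrays. All 3 groups lay apart, with local highest, then systemic, then control. The local rise was 5.59 ± 0.19 (log2, SE, 95% interval 5.14 to 6.04, adjusted p = 5.3e-06 by limma), the 19th highest difference of all probe sets. The systemic rise was 0.97 ± 0.19, or 1.95-fold (adjusted p = 0.021), which is 17.3% of the local log2 difference. Local leaves exceeded systemic ones by 4.62 ± 0.19 (24.6-fold, adjusted p = 2.5e-05), the seventh highest of all probe sets. The systemic call did not survive the removal of control replicate 1 (adjusted p = 0.0504), control replicate 2 (0.094) or systemic replicate 1 (0.1).

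AT3G01830 was near the bottom of the control arrays, at 3.63 and 3.57, and reached 9.24 and 8.97 in local leaves. The local difference was 5.51 ± 0.48 (95% interval 4.40 to 6.61, adjusted p = 0.00017), and since the control values lay below the lower quartile of their arrays (4.41 and 4.48), where RMA compresses differences, the 45.5-fold rise may be understated. The systemic arrays disagreed: they stood at 5.91 and 4.07, a gap of 1.84. Both were above both control arrays, but the difference of 1.39 ± 0.48 did not pass (adjusted p = 0.13). It was 2.31 without systemic replicate 2 (adjusted p = 0.0004) and 0.47 without systemic replicate 1 (adjusted p = 0.17), and of the 6 fits with 1 array left out only the first passed. Local leaves exceeded systemic leaves by 4.12 ± 0.48 (adjusted p = 0.0025), and by 3.20 to 5.03 with any 1 array left out.

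AT4G27280 had control values of 8.08 and 7.52, local values of 12.55 and 12.70 and systemic values of 11.18 and 10.19. The groups did not overlap. It rose by 4.83 ± 0.30 in local leaves (28.3-fold, adjusted p = 4.1e-05) and by 2.89 ± 0.30 in systemic leaves (7.39-fold, adjusted p = 0.0016), the 22nd highest systemic difference of all probe sets. The systemic rise was 59.8% of the local one on the log2 scale, and local exceeded systemic leaves by 1.94 ± 0.30 (3.84-fold, adjusted p = 0.0081). That last call was lost without local replicate 1 (2.02, adjusted p = 0.056), and the difference was 1.45 without systemic replicate 2.

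CML37, the calcium sensor that promotes jasmonate-dependent defence, stood at 3.88 and 3.81 on the control arrays and at 3.92 and 3.79 on the systemic arrays. On the local arrays it stood at 7.23 and 7.30. The local values were thus apart from the other 4, which overlapped each other. The local difference from control was 3.42 ± 0.10 (10.7-fold, adjusted p = 2.6e-06) and from systemic leaves 3.41 ± 0.10 (adjusted p = 4.4e-06). The systemic difference from control was 0.01, with a 95% interval of -0.21 to 0.23 (adjusted p = 0.98). Control and systemic values lay below the lower quartile of their arrays, so a small systemic change in this transcript would not be seen.

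CML23, a calmodulin-like protein known from flowering time and nitric oxide regulation, showed a graded pattern. Its values were 5.64 and 5.12 in control, 7.27 and 6.75 in systemic and 8.02 and 7.93 in local leaves, with no overlap. The rise was 2.60 ± 0.21 in local leaves (6.04-fold, adjusted p = 0.00011) and 1.63 ± 0.21 in systemic leaves (3.1-fold, adjusted p = 0.0035), the latter 62.8% of the former. Both rises passed with any single array left out. The step from systemic to local leaves was 0.96 ± 0.21 (adjusted p = 0.026), a call that failed without local replicate 1 (0.92, adjusted p = 0.17), local replicate 2 (1.0, adjusted p = 0.082) or systemic replicate 2 (0.71, adjusted p = 0.15).

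CML42, which restrains jasmonate-dependent defence and also acts in trichome branching, was the one gene called against control in both leaves but not between them. It stood at 6.84 and 6.79 in control, 7.52 and 7.99 in local and 7.69 and 7.65 in systemic leaves. Local and systemic values overlapped, and both lay above control. It rose by 0.94 ± 0.15 (1.91-fold, adjusted p = 0.0032) and 0.86 ± 0.15 (1.81-fold, adjusted p = 0.012). The difference of local from systemic leaves was 0.08 with a 95% interval of -0.26 to 0.42 (adjusted p = 0.83), so a difference of up to 0.42 is not excluded by the fit. Without local replicate 2 it was -0.16. The systemic call failed on removal of control replicate 2 (adjusted p = 0.0505), systemic replicate 1 (0.077) or systemic replicate 2 (0.056).

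**Figure D2:**
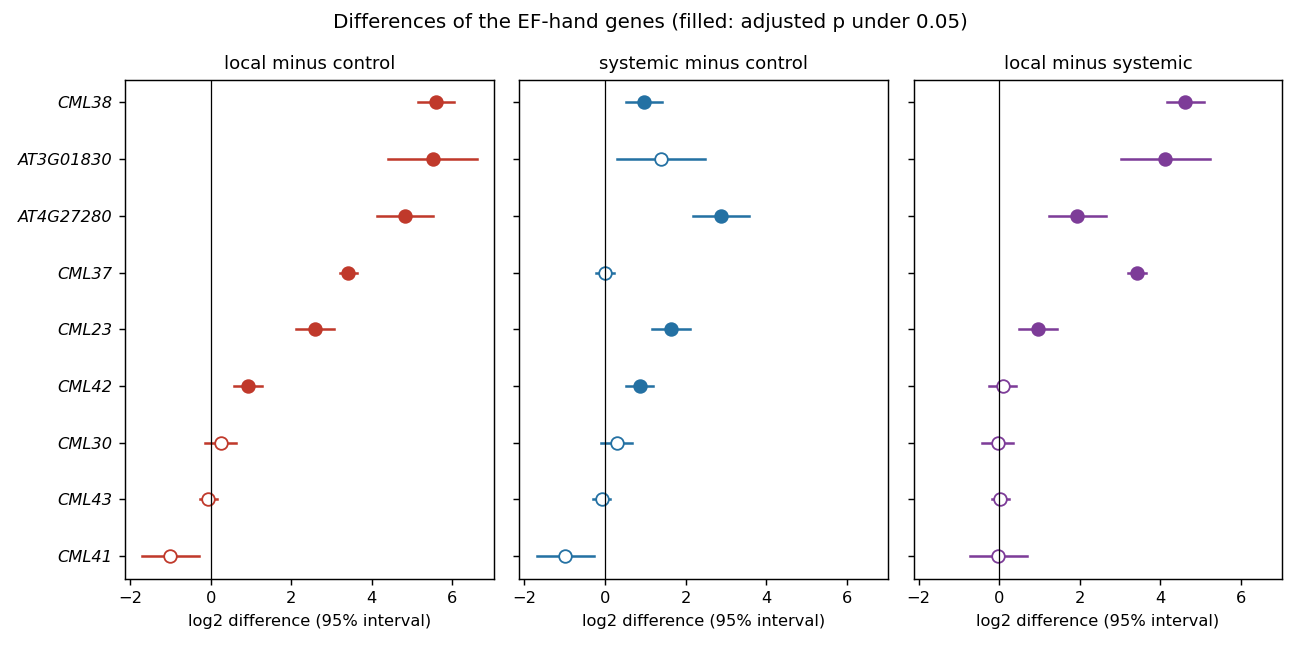
Log2 difference (x axis) of each EF-hand gene in the 3 comparisons, with points for the difference and bars for its 95% interval from limma. Filled points passed an adjusted p of 0.05; CML37 is filled for local minus control (3.42) and open at 0.01 for systemic minus control.

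The other 3 genes did not pass in any comparison. CML41, the plasmodesmal sensor, stood at 6.43 and 5.29 in control leaves, 4.96 and 4.76 in local and 4.78 and 4.97 in systemic leaves. Its control arrays were thus 1.14 apart, and both lay above all 4 arrays of wounded plants. The differences were -1.0 ± 0.31 in local leaves (adjusted p = 0.051) and -0.98 ± 0.31 in systemic leaves (adjusted p = 0.1), and the local and systemic values overlapped.

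The size of the CML41 difference rested on which control array was used. Without control replicate 2 it was -1.57 in local and -1.55 in systemic leaves, and without control replicate 1 it was -0.43 and -0.41. Control replicate 2 also had the dimmest spiked-in control RNAs: the poly-A spikes averaged 7.45 there and at least 7.75 elsewhere, and the hybridization spikes 9.19 there and at least 9.49 elsewhere. The part of this in the CML41 values was not tested. The local difference passed with the replicate number as a block (adjusted p = 0.034 by limma), with median centring (0.045) or with trended variances (0.039). It also passed with a filter at the 25th percentile of signal (0.0465) or only probe sets with 1 listed gene (0.04). With cyclic loess (adjusted p = 0.083), robust variances (0.12) or only the 4 arrays compared (0.072) it did not pass.

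CML30, a calmodulin-like protein known to reside in mitochondria, stood at 6.36 and 6.46 in control, 6.53 and 6.79 in local and 6.46 and 6.95 in systemic leaves. The differences from control were 0.25 ± 0.17 and 0.29 ± 0.17 (adjusted p = 0.36 and 0.38), with upper 95% bounds of 0.63 and 0.68. CML43, known from the hypersensitive response, held between 4.42 and 4.56 on all 6 arrays. Its differences of -0.06 and -0.08 had 95% intervals of -0.26 to 0.15 and -0.29 to 0.13. As its level lay close to the lower quartile of every array, it may not have been detected.

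The replicate pools did not vary alike across these genes. Over the 9 genes the median SD between replicates was 0.0734 for control, 0.143 for local and 0.346 for systemic leaves, against 0.085, 0.077 and 0.078 over all probe sets. In all 6 genes that rose in local leaves, systemic replicate 1 stood above systemic replicate 2, by 0.04 (CML42) to 1.84 (AT3G01830). Control replicate 1 likewise stood above control replicate 2 in these 6 genes, by 0.04 (CML42) to 0.57 (AT4G27280). On the local arrays the order differed between the genes. Without systemic replicate 1, the systemic differences of CML38, CML42, CML23 and AT4G27280 were 0.69, 0.84, 1.37 and 2.39. Without control replicate 2 they were 0.85, 0.83, 1.37 and 2.60. The systemic calls of CML38 and CML42 failed in both settings, as given above.

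Among themselves the EF-hand genes differed in how much of the local rise was seen in systemic leaves. On the log2 scale it was 91.3% for CML42, 62.8% for CML23, 59.8% for AT4G27280, 25.3% for AT3G01830, 17.3% for CML38 and under 1% for CML37 (0.213%). With 1 array left out the share ran from 72.9% to 122% for CML42, 52.9% to 72.7% for CML23, 49.6% to 70% for AT4G27280 and 12.3% to 22.3% for CML38. That of AT3G01830 was 8.58% without systemic replicate 1, below the 12.3% of CML38 in that setting, and 41.9% without systemic replicate 2, so its size and its place in this order rest on single arrays. The share of CML37 ran from -1.69% to 2.12%, and its control and systemic values lay below the lower quartile of their arrays. All these shares have the control arrays in both terms and are a description. The difference of local from systemic leaves, given above for each gene, does not use the control values. Its SE and p-value do, because the spread was estimated over all 6 arrays. By Euclidean distance of mean-centred log2 values over the 6 arrays, CML38 and AT3G01830 were the closest pair among the 6 genes that rose (1.06), while CML38 and CML42 were the farthest apart (5.35).

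Outside these 9 genes, the 2 genes nearest in pattern to each member were found by the same distance. CML38 lay nearest to AT1G19210 and AT3G02840 (0.76 each), which stood at 10.15 and 10.10 in local leaves and 5.06 and 5.38 in systemic leaves. AT3G01830 lay nearest to AT5G17350 (0.66) and AT4G27652 (0.72). For AT4G27280 the nearest genes were AT3G04640 (0.36) and AT2G27080 (0.58), with systemic differences of 3.15 and 3.25 beside its own 2.89.

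CML37 lay nearest to AT5G65300 (0.27) and AT2G17660 (0.36), whose local differences were 3.49 and 3.63 and systemic differences 0.21 and 0.27. CML23 was nearest to AT1G67470 (0.36) and AT5G28630 (0.37), and CML42 to AT3G06890 (0.15) and AT3G15310 (0.23). The genes nearest to CML41 were AT3G02480 (0.28) and SAG29 (0.29), a senescence-associated sugar transporter, with local differences of -0.81 and -1.11. CML30 (nearest AT4G26600 and IRX15-L) and CML43 (nearest AT4G19010 and AT4G40050) varied so little that small distances are common for them. All distances share the same 6 arrays and the same groups, so they describe likeness of pattern and nothing more.

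**Figure D3:**
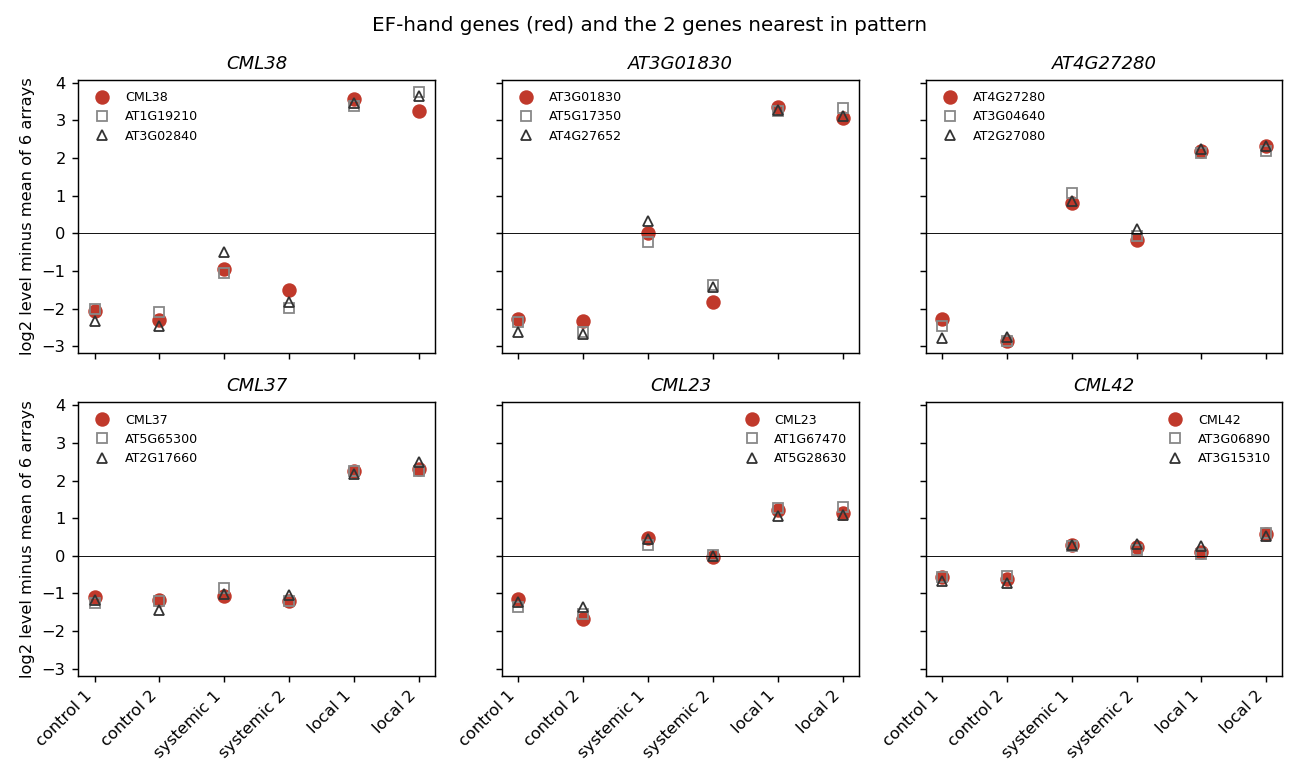
Log2 level minus its mean over the 6 arrays (y axis) on each array (x axis) for the 6 EF-hand genes that rose in local leaves (filled red points) and the 2 genes nearest to each in pattern (open squares and triangles). AT4G27280 and AT3G04640 (distance 0.36) lie almost on each other, with systemic arrays between control and local ones, while CML37 and its neighbours stay at the control level in systemic leaves.

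Along the chromosomes, the 2 protein-coding genes on either side of each member in the TAIR10.1 gene table gave 36 places, of which 24 genes had a named probe set (25 probe sets). In local leaves 2 of these 25 were higher and 1 lower, and in systemic leaves 1 was higher. These are 3 of 25 and 1 of 25 calls, beside 23.6% and 8.4% of all probe sets. AT3G01820, next to AT3G01830, was higher by 0.96 in local (adjusted p = 0.00054) and by 0.56 in systemic leaves (adjusted p = 0.016, or 0.074 without control replicate 1 and 0.11 without systemic replicate 1). AT1G76640, the gene next to CML38, differed by -0.01 in local leaves (SE 0.10, adjusted p = 0.98), beside the 48.1-fold rise of CML38. It is named here only by its locus, so the symbol rule does not tell whether AT1G76640 belongs to the CML family. AT1G76660 on the other side of CML38 differed by -0.64 in local leaves (adjusted p = 0.028), and AT4G27300, which lies 2 places from AT4G27280, by 0.59 (adjusted p = 0.02). The first call failed without control replicate 1 (0.14) or local replicate 1 (0.18), the second without control replicate 2 (0.1) or local replicate 1 (0.13). The calmodulin gene CAM4 beside CML23 had no probe set named here.

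Other genes of calcium signalling were taken from 14 lists of channels, pumps, sensors, kinases and calmodulin-binding proteins. Only 3 of the lists had genes with a named probe set, 22 genes in all, so pumps, exchangers, calmodulins and calcium-dependent kinases were not analysed here. In local leaves 3 of the 22 rose and 4 fell, with a median difference of 0.03. In systemic leaves 2 rose, none fell, and the median was -0.02. Between local and systemic leaves 1 was higher and 1 lower. Without local replicate 1 the local counts were 2 and 0, and without control replicate 2 they were 2 and 2; 1 gene was called in systemic leaves without any 1 array but control replicate 1, and 1 between the leaves without local replicate 1 or systemic replicate 2. The shares of all probe sets called in either direction were 23.6%, 8.4% and 9.7%.

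Among the glutamate receptor-like channel genes, 1 of 8 rose in local leaves and none in systemic leaves. Over all probe sets 9.92% rose in local and 4.73% in systemic leaves. GLR2.7 had mean levels of 6.14 (control), 7.12 (local) and 5.96 (systemic), a local rise of 0.98 ± 0.09 (adjusted p = 0.00029) and a difference between local and systemic leaves of 1.16 ± 0.09 (adjusted p = 0.00062). GLR3.3 and GLR3.6, channels known to carry wound signals between leaves, differed from control by 0.20 and -0.08 in local and by -0.14 and 0.03 in systemic leaves, and did not pass. The 3 measured calmodulin-binding transcription activators (AT1G67310, AT3G16940 and AT4G16150), which bind calmodulin and act in rapid stress responses, differed by -0.02 to 0.20 in local and by 0.01 to 0.23 in systemic leaves, none past the threshold.

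The 11 IQD genes encode calmodulin-binding proteins of the cytoskeleton and nucleus. In local leaves 2 of the 11 rose and 4 fell, beside 9.92% and 13.7% of all probe sets. In systemic leaves 2 rose and none fell, beside 4.73% and 3.67%. IQD23 rose by 0.73 ± 0.11 in local (adjusted p = 0.0026) and by 1.14 ± 0.11 in systemic leaves (adjusted p = 0.0012). Its level was 7.59, 8.32 and 8.73 in control, local and systemic leaves, and the difference between the last 2 of -0.41 did not pass (adjusted p = 0.06). IQD30 fell by 0.68 ± 0.13 in local leaves (adjusted p = 0.007) and was at 7.67 in systemic against 7.64 in control leaves, a local minus systemic difference of -0.70 (adjusted p = 0.015). The local call of IQD30 was lost without local replicate 1 (adjusted p = 0.051), and the difference from systemic leaves without local replicate 1 or systemic replicate 2 (adjusted p = 0.11 and 0.1). IQD28, IQD31 and IQD26 differed by -0.71, -0.59 and -0.44 in local leaves and IQD24 by 0.32 in local and 0.41 in systemic leaves. The call of IQD28 failed without control replicate 1 or local replicate 1 (adjusted p = 0.054 and 0.09), and that of IQD31 without either control array or local replicate 1 (0.1 to 0.17). Those of IQD26 and IQD24 in local leaves failed without any array but control replicate 1 (0.064 to 0.21), and that of IQD24 in systemic leaves without any array (0.055 to 0.19).

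**Figure D4:**
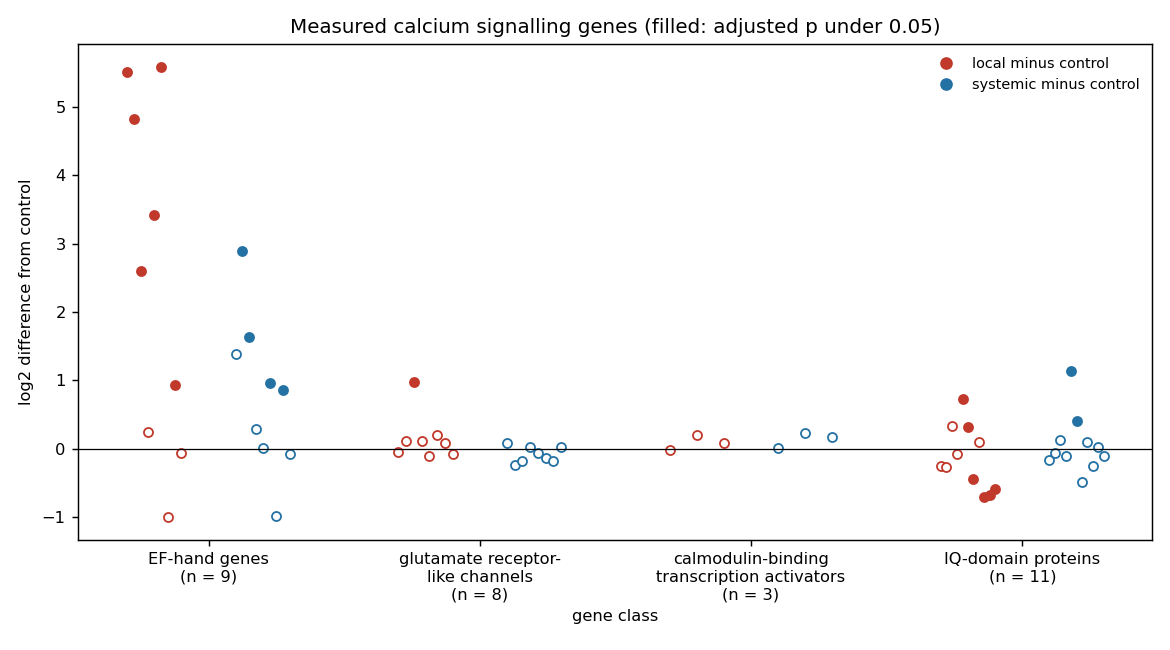
Log2 difference from control (y axis) of the 9 EF-hand genes and 22 other calcium signalling genes by class (x axis), in local (red) and systemic (blue) leaves, with 1 point per gene, filled where the adjusted p was under 0.05. The 22 other genes lie between -0.71 and 1.14, while the EF-hand genes reach 5.59; both comparisons share the control arrays.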

How the data were processed

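Total RNA (6 µg per pool) was labelled by one-cycle 3' amplification and hybridised to 1 array per pool, per the labels' protocols. The deposited values are log2 levels per probe set, made by the authors with RMA, with Affymetrix Expression Console also named, per the submitters' processing notes. RMA subtracts background, forces one distribution on all arrays and gives each probe set a single value. A shift of all transcripts one way is then invisible, and dim probe sets show too small a difference. There are no detection calls. The number of arrays limits the precision.

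Of 22810 probe sets, 64 controls were left out and 22746 tested without a filter. Genes were named from the platform annotation, updated through the TAIR10.1 gene table: 13513 probe sets had 1 listed gene, 503 several (not named) and 8730 none. The model, in limma 3.58.1 (R 4.3.3), held 1 mean for each group over all 6 arrays, with two-sided tests and Benjamini-Hochberg adjustment over all 22746 at a threshold of 0.05 (3 residual and 4.85 prior degrees of freedom). The fit was tested on simulated data. Where an array left out leaves 1 in a group, that array is assumed to vary like the others.

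The members, gene lists and tests were chosen with earlier results of these data known. All members are named, the 2 nearest genes of each, and called genes of the calcium lists. The genome-neighbour comparison, the shares of the local rise (also with each array left out) and the counts without the 2 genes added by name were added after the values were seen. The epidermis marker FDH was re-matched by locus, because its symbol had also matched a formate dehydrogenase gene. Motif and protein comparisons were not run, as no sequence was used here. Alternatives were 2 filters on dim probe sets, cyclic loess, median centring, a block for the replicate number, trended and robust variances, 4 arrays, only probe sets with 1 gene, and each array left out.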

Additional observations from a re-analysis of the deposited data

How the results depend on the processing

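With 2 arrays per group, single arrays decided several calls. In the comparison of local with control leaves 6 EF-hand genes were called, and 4 to 7 under the alternatives. The count of 4 came with probe sets below the median left out, where only 5 of the 9 genes were tested. Where the count was 7, the added call was CML41, which was lower. Leaving out 1 array gave 6 to 7 called genes in that comparison, 2 to 4 in systemic against control (4 with all arrays) and 3 to 5 in local against systemic (5 with all arrays). With probe sets below the median left out, 5 of the 9 genes stayed in the test and 3 were called in local against systemic, because dim genes such as CML37 were no longer tested. With the replicate number as a block the counts were 7, 4 and 5, the added call being CML41. The labels do not say that the numbers pair the pools, and deviations from the group means correlated at 0.14, 0.02 and 0.20 between same-numbered arrays of control and local, control and systemic, and local and systemic leaves. Among 231 combinations of gene, comparison and setting other than an array left out, 223 kept direction and side of the threshold, 5 (all CML41 in local leaves) passed newly and 3 changed sign. All sign changes were in differences that passed in no setting: for local minus systemic, CML41 at 0.00 with median centring and 0.01 with cyclic loess, and CML30 at 0.01 with cyclic loess. With 1 array left out, local minus systemic ran from -0.12 to 0.08 for CML41, -0.29 to 0.20 for CML30, -0.16 to 0.32 for CML42 and -0.00 to 0.05 for CML43, and systemic minus control from -0.06 to 0.07 for CML37. After cyclic loess 54.8% of all calls in local against control were higher, against 42% as deposited, and 60.5% against 49.1% in local against systemic. The 22 other calcium genes gave 2 to 7 calls in local against control with 1 array left out or none. The cause of these shifts was not tested.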
